A study of Gallus gallus with 12 samples.

Results

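The potassium channel genes described here are all genes whose symbol begins with KCN and that held at least 50 UMIs (unique molecular identifiers, each standing for 1 captured RNA molecule) over the 12 single-cell libraries of embryonic chick retina. The count tables held 85 such symbols among 23726 genes, 74 of them reached the minimum, and 11 did not. A member just inside it was KCNE4 with 53 UMIs, and the genes just outside it were KCNS3 with 33 UMIs and KCNJ1 with 25. KCNJ10, the inward rectifier best known from Müller glia of mammals, was not analysed here.

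The study profiled dissociated chick retina (Gallus gallus) with droplet-based single-cell RNA sequencing that reads the 3' ends of transcripts. Whole retina was taken at embryonic day 12 (E12, 4 libraries) and embryonic day 18 (E18, 4 libraries). Cells enriched for retinal ganglion cells with a Thy-1 antibody were taken at E16 from dorsal retina (2 libraries) and ventral retina (2 libraries). All embryos came from specific pathogen free eggs, and the labels give no genotype, transgene or drug treatment for any group. The pigment epithelium and the pecten had been removed before dissociation. The free-text description of the 4 enriched libraries gives E18, whereas their titles, stage fields and protocol give E16, which was used. Nothing in the labels tells whether replicate libraries were made from different embryos, so p-values measure the spread between libraries, which may be technical.

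Potassium channels let potassium ions cross the membrane along their gradient, which sets the resting potential and ends depolarization. Voltage-gated channels of the Kv families open on depolarization and shape spikes and light responses, silent subunits modify the Kv2 channels they join, and calcium-activated channels link the potential to calcium entry. Inward rectifiers (KCNJ) and 2-pore leak channels (KCNK) carry current near rest, and in the retina Müller glia use such channels to take up and redistribute the potassium that neurons release. Photoreceptors and bipolar cells signal mostly with graded potentials, whereas ganglion cells and many amacrine cells fire action potentials.

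The E12 libraries held 14066 to 14225 cell barcodes with a median of 1569 to 1745 UMIs, and the E18 libraries held 7259 to 7683 barcodes with a median of 1617 to 1681 UMIs. Barcodes were sorted into 6 classes (photoreceptor, bipolar, horizontal, amacrine, ganglion and Müller glia) by marker gates that contain no KCN gene, and their UMIs were summed per library and class. A barcode entered a gate when at least 4 markers of the class were detected and at least 3 more than of any other list, which kept 47.0% to 48.3% of E12 barcodes and 67.0% to 67.7% of E18 barcodes. The gates were smallest for E12 photoreceptors (69 to 76 barcodes per library) and E12 horizontal cells (108 to 141), and E18 ganglion cells held 133 to 181 barcodes per library. Median UMIs per barcode were 2431 to 2613 at E12 and 5118 to 5719 at E18 in ganglion cells. They were 1566 to 1749 and 2809.5 to 3030 in amacrine cells, and 1425 to 1551.5 and 2535.5 to 2699 in Müller glia. Horizontal cells had 1341 to 1513.5 and 1735 to 1828, and bipolar cells 1358 to 1510 and 1391 to 1505. Photoreceptors went the other way, with 1501.5 to 1621 and 1163 to 1222. At the minimum of markers or margin lay 59.8% of E12 horizontal barcodes and 51.6% of E12 amacrine barcodes, against 4.08% of E18 ganglion barcodes. The W-linked transcript HINTW, which only female birds carry, was detected in 28.8% to 30.5% of E12 barcodes and in 0% of E18 barcodes. In the E16 libraries it was detected in 58.9% to 67.4% of barcodes. The stage results were recomputed without the barcodes that held it. A female cell in which no HINTW UMI was captured stays in those sums, so the recomputation does not remove a difference in sex. No batch is given in the labels, so stage cannot be told apart from batch or from the sex of the embryos. Levels are given as CPM, UMI counts per 1000000 UMIs of the gate, as mean ± SD over 4 libraries (n = 4) unless single libraries are given in replicate order, and they are not corrected for transcript length, so they are compared between cells and not between genes.

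At E18, 61 members had enough counts to be compared across the 6 classes, and 59 of them were called higher in at least 1 class than in the mean of the other 5 (edgeR, at least 2-fold with a Benjamini-Hochberg adjusted p under 0.05 over all genes), beside 57.5% of all genes tested. Of these, 13 were called higher in 1 class, 35 in 2 and 11 in 3. A member enters this comparison when its counts are high enough in 1 class, so a gene nearly undetected elsewhere enters only through that class. Its call there is then largely fixed in advance, and the counts of calls at E18 and E12 describe the members that passed. Ganglion cells had 36 of the 61 members called higher (beside 17.3% of all genes), amacrine cells 28 (13.1%) and bipolar cells 25 (11.0%). Photoreceptors and horizontal cells had 10 each (14.8% and 9.86% of all genes), and Müller glia had 7, a smaller share than the 21.3% of all genes. The median member lay above the mean of the other classes by 1.40 on the log2 scale in ganglion cells and below it in Müller glia (-1.27), while the median of all genes lay at -0.08 and -0.05. For 27 of the 61 members the highest class stood at least 2-fold above the next class, 10 of them in ganglion cells, 7 in bipolar cells, 5 in amacrine cells, 3 in horizontal cells, 2 in Müller glia and 0 in photoreceptors. No share of all genes is given for this count, so it describes these members only. KCNH2, an ERG-type channel gene, and KCNN2, a small-conductance calcium-activated channel gene, were called higher in no class.

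**Figure D1:**
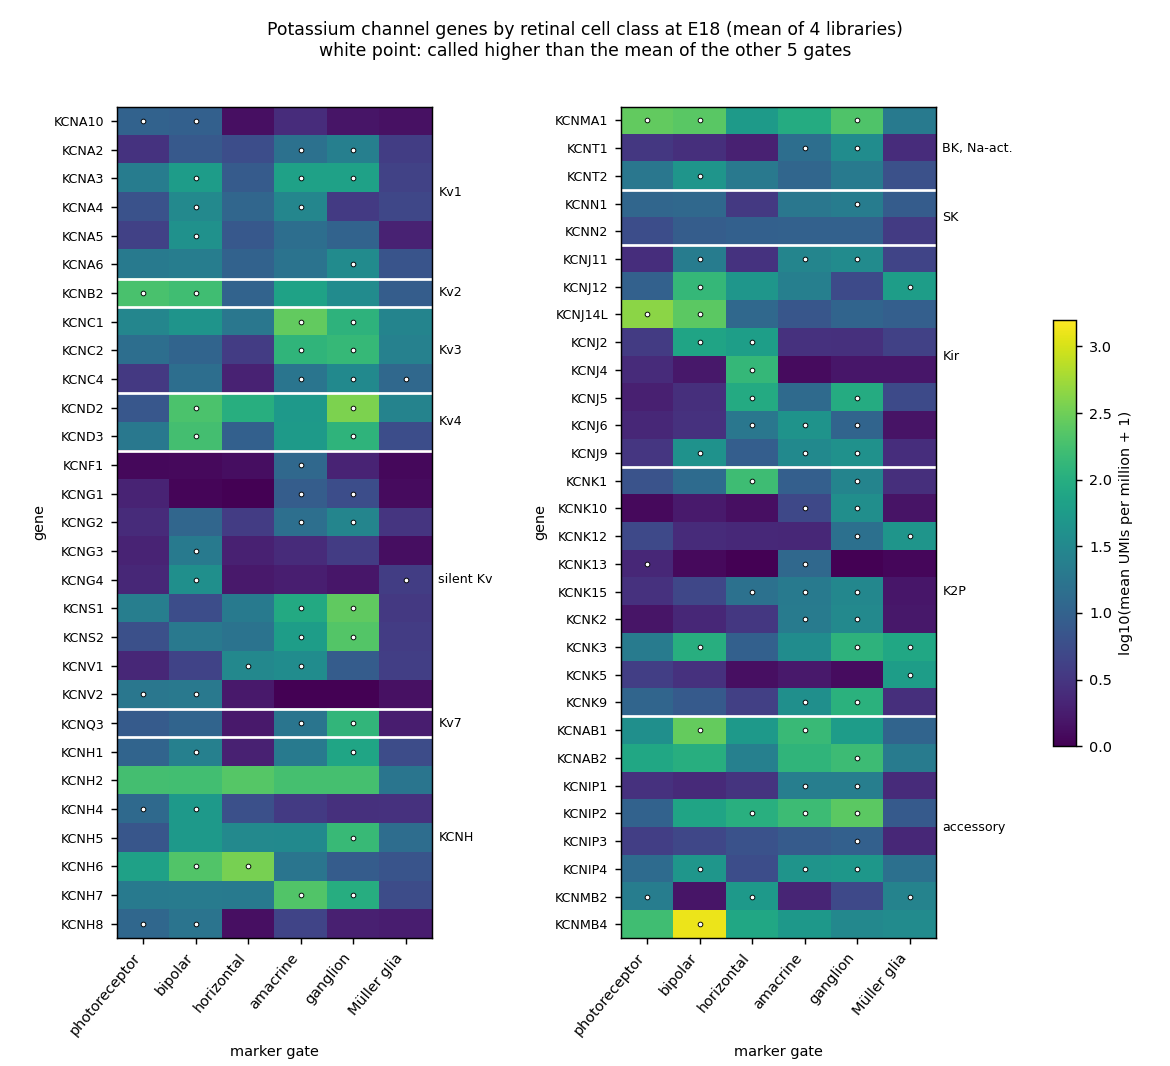
Mean level of 59 of the 61 potassium channel genes tested at E18 (rows, grouped by family) in each marker gate (columns), as log10 of CPM plus 1, mean of 4 libraries. White points mark the gates in which a gene was called higher than in the mean of the other 5 gates: 35 of those shown in the ganglion column and 7 in the Müller glia column.

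The class pattern was partly present at E12. Of 37 members with enough counts at E12, 36 were called higher in at least 1 class (46.4% of all genes), and 24 of the 37 had their highest level in the same class at both stages. The count of 24 has no share of all genes beside it and describes these members only. The 1 member of the 37 without a call was KCNAB2, a cytoplasmic beta subunit of Kv1 channels. Ganglion cells again had the most members called higher, 24 of 37 (16.2% of all genes), followed by amacrine cells with 14 (9.34%) and bipolar cells with 12 (8.3%). Photoreceptors had 7 (9.37%), horizontal cells 4 (6.3%) and Müller glia 2 (14.8%).

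Between E12 and E18 most potassium channel genes tested were called in some class. Over the 6 classes, 61 members were tested in at least 1 and 48 were called in at least 1 (2-fold, adjusted p under 0.05), beside 53.7% of all genes. Of these 48, 39 were called only higher at E18, beside 31.3% of all genes. The other 9 were called lower in at least 1 class (22.4% of all genes), 8 of them only lower (KCNA3, KCNC1, KCNH4, KCNH7, KCNN1, KCNS1, KCNS2 and KCNT2) and KCNMB4 in both directions. A member enters the test when its counts are high enough at either stage, so a gene that is nearly undetected at one stage enters only through the other, and the counts below describe the members that passed. The call of such a gene is then largely fixed in advance.

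Bipolar cells had the most members called: 25 of 44 tested were higher at E18 and 3 lower, beside 12.7% and 8.61% of all genes, and the median member rose by 1.14 on the log2 scale while the median gene stood at 0.00. In amacrine cells 19 of 53 rose and 3 fell (11.8% and 7.9% of all genes), with a median of members of 0.73 beside -0.01 for all genes. In ganglion cells 13 of 46 rose and 1 fell (10.6% and 7.38%; median 0.68 beside -0.02). In photoreceptors 8 of 21 rose and 3 fell (17.6% and 9.81%; median 0.85 beside 0.15 for all genes). In horizontal cells 10 of 22 rose and 5 fell (11.5% and 9.23%; median 0.15 beside 0.00). In Müller glia 6 of 24 rose and 2 fell (17.2% and 10.3%; median 0.17 beside 0.03); with library totals 12 of the 24 were higher, so the direction of that median rests on the scaling. The photoreceptor count was 7 instead of 11 without any 1 of the 4 E18 libraries. The Müller glia count was 13 to 17 instead of 8 without any 1 of the 4 E12 libraries and 4 without any 1 of the 4 E18 libraries. The filter on low counts depends on the size of the sums, which were smaller at E12 in both gates. With no filter on low counts the Müller glia count over all libraries was 22 instead of 8. The counts without 1 library were not recomputed without the filter, so its part in them was not tested. Without the HINTW barcodes 26 instead of 28 members were called in bipolar cells, 13 instead of 15 in horizontal cells and 20 instead of 22 in amacrine cells. The counts in photoreceptors, ganglion cells and Müller glia were 11, 14 and 8 as before. Female cells without a captured HINTW UMI remain in these sums, so the part of sex in the counts was not tested.

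**Figure D2:**
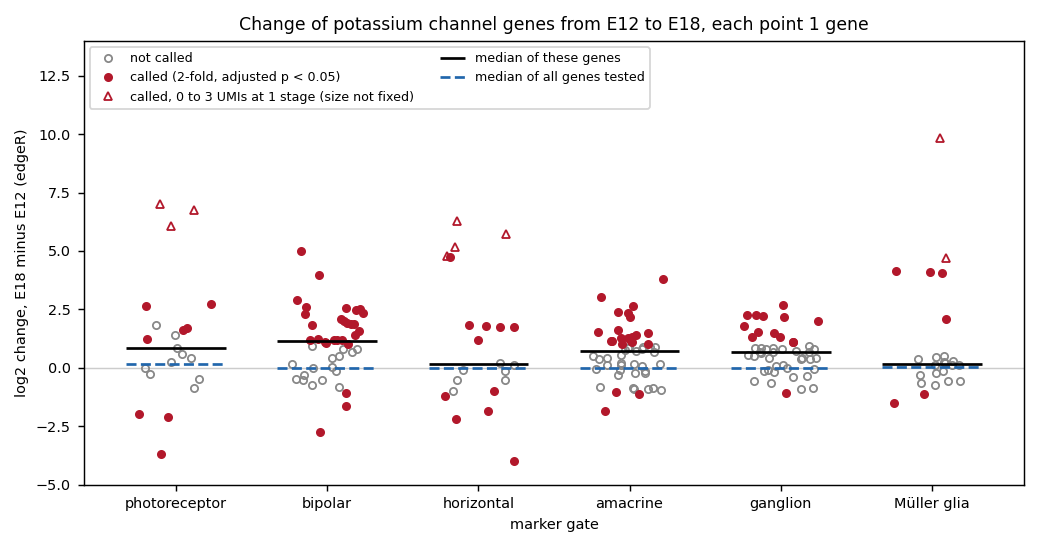
Log2 change from E12 to E18 (edgeR) of every potassium channel gene tested in each gate, 1 point per gene, with the median of these genes (black) and of all genes tested (dashed). Filled points passed the 2-fold and adjusted p thresholds, and open triangles also passed but rest on 0 to 3 UMIs at 1 stage, so that their height is not a measured size. The black line stands at 1.14 in bipolar cells and at 0.17 in Müller glia.

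The changes differed between classes for 50 of the 59 members that could be tested for it (edgeR interaction of class and stage, adjusted p under 0.05, no fold minimum), beside 72.7% of all genes. The 9 without a called difference were KCNA6, KCNC4, KCNG3, KCNG4, KCNH8, KCNIP3, KCNK15, KCNN2 and KCNT1, with adjusted p from 0.109 to 0.905. KCNA6, which encodes a Kv1 subunit, rose in bipolar, amacrine and ganglion cells by 1.11, 1.39 and 1.53 on the log2 scale, the first not called without E12 replicate 4 (0.88).

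The Kv1 family (KCNA) includes low-threshold delayed rectifiers. At E18, 4 of its 6 tested members were called higher in bipolar cells (beside 11.0% of all genes), 3 in amacrine cells (13.1%) and 3 in ganglion cells (17.3%). KCNA5 stood in bipolar cells at 39.7, 49.2, 36.6 and 37.3 CPM, above amacrine cells as the next class with 13.2. It rose there from 16.9 ± 3.59 at E12 (log2 1.19, SE 0.19, adjusted p = 1.83e-06), and no library of one stage overlapped the other. KCNA3 (Kv1.3) was spread over amacrine, ganglion and bipolar cells at 67.3, 66.5 and 58.5 at E18. In horizontal cells it fell from 31.1, 33.5, 34.4 and 23.4 at E12 to 9.43, 6.95, 5.32 and 7.78 at E18 (log2 -2.17, SE 0.42, adjusted p = 2.08e-05). The 2 stages did not overlap, and KCNA3 also fell in Müller glia from 10.6 to 3.23. In the horizontal gate the bipolar marker list summed to 1001 to 1258 CPM at E12 (14 of 19 markers detected) and 417 to 510.4 at E18 (16 of 19), with SEBOX, LRIT3 and TACR3 at 0 at both stages. The photoreceptor list there summed to 481 to 756 CPM (14 of 29, mostly RBP4) and 189.9 to 272 (19 of 29), with GNAT1 and SAG at 0 at both stages. The ganglion cell list there summed to 454 to 699 CPM at E12 and 257 to 311 at E18 (17 of 17 markers at both stages). The amacrine list summed to 3650 to 4194 CPM and 3842 to 4120 (14 of 17 at both stages). Of it, GAD1 alone stood at 113 to 151 at E12 and 1259 to 1512 at E18. The part of any of these lists in the horizontal falls of KCNA3, KCNC1, KCNH7 and KCNN1 was not tested. KCNA10 was highest in photoreceptors (9.11) and bipolar cells (8.61) at E18 and rose in bipolar cells from 1.60; in the small E12 photoreceptor gate it stood at 77.2, 37.1, 78.0 and 7.72, on 24 UMIs and without a test. KCNA2 and KCNA4 were tested and called in no class between stages, and KCNA1, with 101 UMIs in all, was tested only in whole retina, where it rose from 0.096 to 1.12. The beta subunit KCNAB1 rose in bipolar cells from 128 to 278 (log2 1.03, not called without E12 replicate 3 at 0.95 or replicate 4), with amacrine cells next at 147.

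KCNB2 encodes a Kv2 subunit, a slow delayed rectifier to which the silent subunits bind. It was called higher in photoreceptors at E18 and rose there. It had 1 UMI in all E12 photoreceptors, with levels of 0, 7.42, 0 and 0, and 1040 UMIs at E18, with levels of 194, 202, 188 and 179. The ratio of the sums was 71.6 with a 95% counting interval of 12.8 to 2833, and every E18 library lay above every E12 library. In bipolar cells KCNB2 rose from 65.7 ± 3.57 to 163 ± 11.1 (log2 1.23, not called with the stricter gate at 0.97), while in ganglion cells it stood at 33.1 and 33.9.

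The silent subunits (KCNF, KCNG, KCNS and KCNV) form no channel alone and change the gating of Kv2. KCNS1 changed class between the stages. At E12 its highest gate was photoreceptors, at 240.1, 230.1, 234 and 185, above ganglion cells with 128. At E18 photoreceptors stood at 29.8, 25.8, 18.6 and 16.5 (log2 -3.69, SE 0.23, adjusted p = 2.36e-26) and ganglion cells at 261, 256, 229 and 294. The photoreceptor libraries of the 2 stages were far apart without overlap, and the rise in ganglion cells (log2 0.86) stayed under 2-fold. In the E12 photoreceptor gate the ganglion cell marker list summed to 1698 to 2153 CPM, mostly ISL2 (mean 1295) and NEFL (404), against 527 to 717 at E18. At E12, 16 of its 17 markers were detected and SLC17A6 stood at 0. RBPMS2 stood there at 7.42 to 8.66, POU4F1 at 7.42 to 26.0, POU4F3 at 0 to 8.66 and NEFM at 0 to 14.8. In the E12 ganglion gate these 4 markers stood at 590 to 651, 994 to 1028, 168 to 181 and 148 to 164. The part of such RNA in the KCNS1 fall was not tested. KCNS1 also fell in bipolar cells (log2 -1.66).

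KCNS2 was highest in ganglion cells at E18, at 202, 221, 250 and 213, against 60.2 in amacrine cells (3.68-fold). Its ganglion cell level had been 185 ± 8.36 at E12, a change that was not called (log2 0.09, adjusted p = 0.245). In bipolar cells KCNS2 was called lower (37.6 to 18.5, log2 -1.09, adjusted p = 4.69e-05), a call that was lost without E12 replicate 3 (-0.93), E18 replicate 3 (-0.95) or E18 replicate 4 (-0.95). KCNG4 was a bipolar gene at E18, at 36.5, 35.5, 38.1 and 42.5, with every other class at 2.84 or less. It had risen from 8.79 ± 0.969 at E12 (log2 2.02, adjusted p = 3.67e-10). KCNG3 rose from 3.05 to 19.5 in bipolar cells, the next class standing at 2.71. KCNF1 was highest in amacrine cells, at 11.1 against 1.10 in the next class, and KCNV1 rose in amacrine cells from 6.77 ± 1.09 to 35.5 ± 6.27 (log2 2.19, adjusted p = 4.31e-12). KCNG2 was highest in ganglion cells and KCNG1 in amacrine cells, each with a second class called higher.

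The Kv3 genes (KCNC) encode fast-closing channels that permit high firing rates. All 3 tested at E18 were called higher in both amacrine and ganglion cells, beside 13.1% and 17.3% of all genes. KCNC1 was highest in amacrine cells, at 324, 303, 211 and 251 against 115 in ganglion cells. It fell in horizontal cells from 67.3, 33.5, 54.1 and 65.5 to 22.9, 18.1, 13.3 and 15.6 (log2 -1.83, SE 0.31, adjusted p = 1.88e-06), where the stages did not overlap. KCNC2 stood at 139 in ganglion cells and 124 in amacrine cells and was called in no class between stages. KCNC4 rose in 4 gates. In ganglion cells it went from 4.58, 5.49, 3.67 and 3.31 to 31.5, 29.6, 38.9 and 26.2 (log2 2.71, SE 0.22, adjusted p = 1.48e-13), and in amacrine cells from 1.72 to 16.4. In Müller glia its ratio was 29.9 (95% counting interval 5.28 to 1190), because E12 held 1 UMI.

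Kv4 channels (KCND) carry the transient A-type current and assemble with KChIP proteins (KCNIP genes). KCND2 was highest in ganglion cells at E18, at 388, 400, 337 and 334, with bipolar cells next at 196. Its rise in ganglion cells from 187 ± 5.89 was below 2-fold (log2 0.81), whereas in bipolar cells it went from 32.4, 41.6, 38.1 and 37.4 to 208, 230.2, 171 and 177 (log2 2.31, SE 0.13, adjusted p = 8.86e-18). KCND2 rose also in horizontal and amacrine cells and KCND3 in bipolar, amacrine and ganglion cells, at log2 changes of 1.19 to 1.79. In photoreceptors KCND3 went from 0 UMIs to 18.1 ± 3.12, at least 2.27-fold higher with 3 counts over the E12 group as the floor.

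KCNIP2, a KChIP, rose in 4 classes. Its ganglion cell levels were 47.7, 46.1, 40.5 and 52.5 at E12 and 293, 249.8, 219 and 226 at E18 (log2 2.25, SE 0.09, adjusted p = 4.11e-23). In amacrine cells it went from 26.1 ± 3.66 to 156 ± 15.3 (log2 2.39, adjusted p = 2.51e-17), in bipolar cells from 12.1 to 72.6 and in horizontal cells from 25.2 to 103. KCNIP4 rose in bipolar cells from 5.71 to 46.4 (log2 2.90, adjusted p = 6.62e-13), in amacrine cells from 7.61 to 43.7 and in ganglion cells from 9.18 to 49.0. In the Müller gate KCNIP4 stood at 14.1 and 14.2. KCNIP1 and KCNIP3 were tested in amacrine and ganglion cells and not called. The dipeptidyl-peptidase-like genes DPP6 and DPP10, whose proteins also join Kv4 channels, rose in bipolar cells from 30.4 to 179.6 and from 15.4 to 79.6.

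KCNQ3 encodes a Kv7 subunit of the M-current, which restrains repetitive firing. It was a ganglion cell gene at E18, at 136, 144, 132 and 102 against 16.5 in amacrine cells (7.77-fold; log2 5.11 above the mean of the others). Its ganglion cell level at E12 was 65.7 ± 2.55, a difference under 2-fold (log2 0.80, adjusted p = 9.98e-10), and it was called in no class. KCNQ1 and KCNQ5 had too few counts to be tested.

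The KCNH genes encode the EAG, ERG and ELK channels. KCNH6, an ERG-type gene, was highest in horizontal cells at 372, 341, 354 and 331, followed by bipolar cells at 211 ± 3.52. It rose in horizontal cells from 104, 89.5, 93.4 and 79.5 (log2 1.76, SE 0.14, adjusted p = 2.32e-15) and in bipolar cells (log2 1.87). KCNH2, a second ERG-type gene, stood between 169 and 226 in the 5 neuronal gates and at 16.7 in Müller glia, and it rose in photoreceptors from 55.2 to 174 (log2 1.23). KCNH7, the remaining ERG-type gene, was highest in amacrine cells at 209.8, 224, 203 and 220.4, against 98.4 in ganglion cells, and fell in horizontal cells from 40.3 to 19.5 (log2 -1.22, adjusted p = 0.00215), a call that was lost among barcodes without a HINTW UMI (-0.94, adjusted p = 0.060).

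Of the EAG-type genes, KCNH5 rose in ganglion cells from 31.5 to 142 (log2 2.00) and KCNH1 from 31.5 to 75.5 (log2 1.10), both being highest there at E18; the KCNH1 call was lost without the barcodes with the most UMIs (0.83). KCNH1 also rose in bipolar cells from 3.53 to 23.7 (log2 2.59, adjusted p = 2.42e-08). KCNH4, an ELK-type gene, was a bipolar gene at E18, at 61.8, 57.4, 36.2 and 50.5 against 11.5 in photoreceptors, and in photoreceptors it had fallen from 42.9, 14.8, 52.0 and 46.3 (log2 -2.11, SE 0.44, adjusted p = 4.16e-05). The lowest E12 photoreceptor library, 14.8, still lay above the highest E18 library, 13.8. KCNH8, also of the ELK type, rose in bipolar cells (log2 1.91).

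KCNMA1 encodes the pore of the large-conductance BK channel, opened by calcium and voltage. It rose in photoreceptors from 34.3, 37.1, 8.66 and 38.6 to 243, 279, 278 and 264 (log2 2.73, adjusted p = 1.21e-15), so that photoreceptors were the highest class at E18, just above bipolar cells at 241 ± 2.24. KCNMB4, a BK beta subunit known from neurons in mammals, was a bipolar gene at both stages. Its bipolar libraries held 949.6, 919.9, 919 and 933 at E12 and 1284, 1285, 1305 and 1300 at E18, against 103 and 166 in the next class. KCNMB4 was the member called in opposite directions. In photoreceptors it rose from 8.57, 22.3, 43.3 and 77.2 to 155, 166, 171 and 171 (log2 1.71, SE 0.28, adjusted p = 2.31e-07). In amacrine cells it fell from 88.9, 86.8, 93.7 and 87.1 to 52.9, 51.0, 57.9 and 39.2 (log2 -1.02, SE 0.08, adjusted p = 6.96e-11). The changes differed between classes (interaction adjusted p = 8.13e-31), but the amacrine fall lay just past 2-fold and was not called with library totals in place of TMM scaling (-0.83), without E12 replicate 3 (-0.99) or without E18 replicate 4 (-0.92).

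KCNMB2, which encodes a BK beta subunit that inactivates the channel, followed another pattern than KCNMB4. It was highest in horizontal cells at E18 (53.1 ± 6.37), with Müller glia next at 25.7 ± 4.17 and 0.497 in bipolar cells. In Müller glia it rose from 0, 3.21, 0 and 3.41 to 25.4, 31.7, 22.8 and 22.9 (log2 4.06, SE 0.43), and in photoreceptors from 0 UMIs to 21.6 ± 5.75, at least 2.71-fold higher.

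The sodium-activated channel gene KCNT2 (Slick in mammals) fell in 3 classes. Amacrine cells went from 36.7, 33.9, 29.3 and 32.4 to 10.6, 6.98, 12.2 and 11.4 (log2 -1.86, SE 0.13, adjusted p = 1.49e-11). In photoreceptors it fell from 68.6, 22.3, 86.6 and 38.6 to 15.3, 20.6, 19.4 and 15.1 (log2 -1.96) and in ganglion cells from 37.9 ± 4.84 to 19.9 ± 2.37 (log2 -1.09). The stages did not overlap in these gates, while in bipolar cells KCNT2 stood at 42.7 and 46.3. The ganglion cell fall was not called with library totals (-0.93). Its relative KCNT1 (Slack) moved the other way in amacrine cells, from 3.98 to 13.3 (log2 1.55, adjusted p = 8.10e-08), and was highest in ganglion cells at 35.2.

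KCNN1, a small-conductance calcium-activated (SK) channel gene, fell in 4 of the 5 classes in which it was tested. In horizontal cells it went from 41.4, 33.5, 24.6 and 46.8 to 1.35, 2.78, 3.99 and 1.30 (log2 -3.99, SE 0.49, adjusted p = 1.18e-09). In bipolar cells it went from 77.7, 55.5, 89.7 and 62.7 to 10.0, 10.9, 10.6 and 12.4 (log2 -2.75, SE 0.17, adjusted p = 2.90e-16). All E12 libraries lay above all E18 libraries in both gates. It also fell in Müller glia (18.7 to 7.44, log2 -1.12, but -0.83 and not called without E12 replicate 4) and amacrine cells (33.2 to 17.6, log2 -1.10), the latter not called with library totals (-0.91), and in ganglion cells the decrease from 35.2 to 20.8 stayed under 2-fold. In the E12 bipolar gate the amacrine marker list summed to 1316 to 1603 CPM against 202 to 238 at E18, with 14 and 17 of 17 markers detected and SLC5A7, SLC18A3 and NEUROD2 at 0 at E12, and its part was not tested. In the Müller gate the bipolar list summed to 1374 to 1549 CPM at E12 (15 of 19 markers, with LRIT3, GPR179, TACR3 and SCGN at 0) and 713 to 749 at E18 (19 of 19). The cycling progenitor list there summed to 318 to 346 CPM at E12 (14 of 14) and 78.8 to 98.9 at E18 (12 of 14, with CENPF and UBE2C at 0). The part of these lists in the Müller falls of KCNN1 and KCNA3 was not tested. KCNN2 rose in ganglion cells from 3.22 to 8.99 (log2 1.30). It lies on the Z chromosome, of which male birds carry a pair, as does KCNV2, which rose in bipolar cells from 5.93 to 18.5 (log2 1.58).

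**Figure D3:**
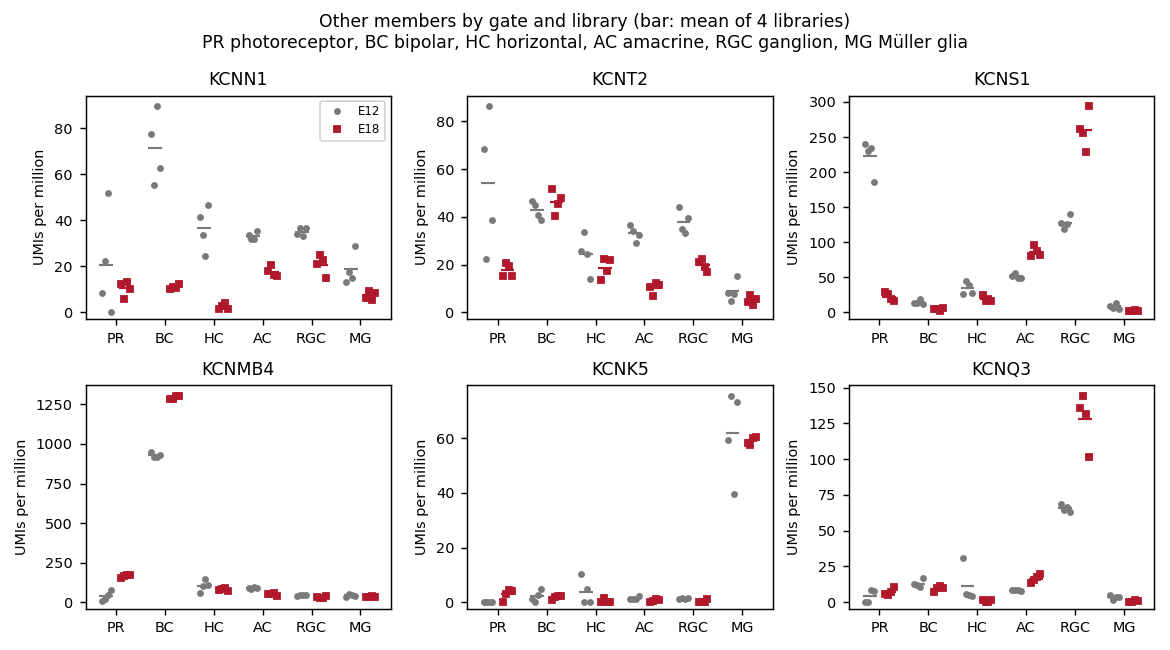
Level of 6 members (CPM) in each library of each gate at E12 (grey circles) and E18 (red squares), with bars for the mean of 4 libraries. KCNN1 and KCNT2 lay lower at E18 in several gates, KCNS1 moved from 222 to 22.7 in photoreceptors and from 128 to 259.9 in ganglion cells, and KCNMB4, KCNK5 and KCNQ3 had their highest gate in common between the stages.

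The inward rectifiers (KCNJ) include genes that were near 0 at E12 and entered the test through E18 alone, so they are described gene by gene. KCNJ14L was not tested in horizontal cells, where it stood at 23.2 ± 8.15 at E12 and 11.1 ± 0.456 at E18 without overlap. KCNJ2 and KCNJ12 encode strong inward rectifiers (Kir2.1 and Kir2.2 in mammals). In bipolar cells KCNJ2 went from 5.18, 1.07, 2.72 and 0 to 74.2, 75.7, 79.4 and 65.8 (log2 4.98, SE 0.28). KCNJ12 went there from 5.18, 8.54, 8.16 and 9.64 to 144, 139, 123 and 131 (log2 3.99, SE 0.17, adjusted p = 3.90e-21). Both genes had low E12 and high E18 libraries with a wide gap between them.

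In horizontal cells 4 inward rectifier genes stood at 1 UMI each over all E12 barcodes. KCNJ4 (Kir2.3) reached 139, 128, 129 and 135 at E18, a ratio of 93.0 (95% counting interval 16.6 to 3683). KCNJ5, whose protein is opened by G-protein subunits, reached 109, 65.4, 90.5 and 88.2 (ratio 62.0, interval 11.0 to 2459). KCNJ2 reached 67.3, 57.0, 51.9 and 66.1 (ratio 42.5, interval 7.54 to 1689). KCNJ12 reached 60.6, 57.0, 30.6 and 40.2 (ratio 32.9, interval 5.81 to 1308). In every case the E18 libraries were all above the E12 libraries, the highest of which held 5.59.

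KCNJ4 had the largest ratio over the next class of the 61 members, with 133 ± 5.04 in horizontal cells and 1.47 or less in every other gate at E18 (90.0-fold over the next). KCNJ4 entered that comparison through the horizontal gate, so its call there was largely fixed in advance. KCNJ5 was shared with ganglion cells, where it rose from 19.2, 16.3, 18.3 and 18.6 to 91.5, 95.9, 90.5 and 86.7 (log2 2.17, SE 0.12, adjusted p = 6.59e-19). In Müller glia KCNJ12 went from 0 UMIs in all 4 E12 libraries to 67.1, 62.8, 56.5 and 51.0, at least 53.3-fold higher. The E12 Müller gate held 529453 to 622839 UMIs per library, and the bound takes 3 counts over the group as the floor. In the same gate the oligodendrocyte marker list summed to 268 to 358 CPM at E12 (8 of 9 markers detected, MOG at 0) and to 856 to 920 CPM at E18 (9 of 9, mostly ERMN), and its part was not tested.

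KCNJ6, a second G-protein-gated gene, rose in amacrine cells from 2.40, 1.67, 4.44 and 2.19 to 45.7, 44.7, 45.1 and 37.3 (log2 3.81, SE 0.17, adjusted p = 3.43e-15). KCNJ9, also of the G-protein-gated type, stood at 41.5 in bipolar cells, 40.8 in ganglion cells and 31.7 in amacrine cells, and the libraries of the first and second of these overlapped. KCNJ14L, named by the files as like KCNJ14, was highest in photoreceptors at E18. At E12 its means were close in photoreceptors (109.4) and bipolar cells (110.2). In photoreceptors KCNJ14L went from 68.6, 126, 173 and 69.5 at E12 to 406, 448, 465 and 453 at E18 (log2 1.62, SE 0.17, adjusted p = 4.79e-14). Its bipolar level rose from 110.2 to 244 (log2 1.07), a call just past 2-fold that was lost without E12 replicate 4 (0.99), without the HINTW barcodes and with the stricter gate (0.98). KCNJ11, the pore of the ATP-sensitive channel, rose in bipolar cells from 5.41 to 21.2, while KCNJ3, KCNJ8 and KCNJ16 had too few counts in every class.

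**Figure D4:**
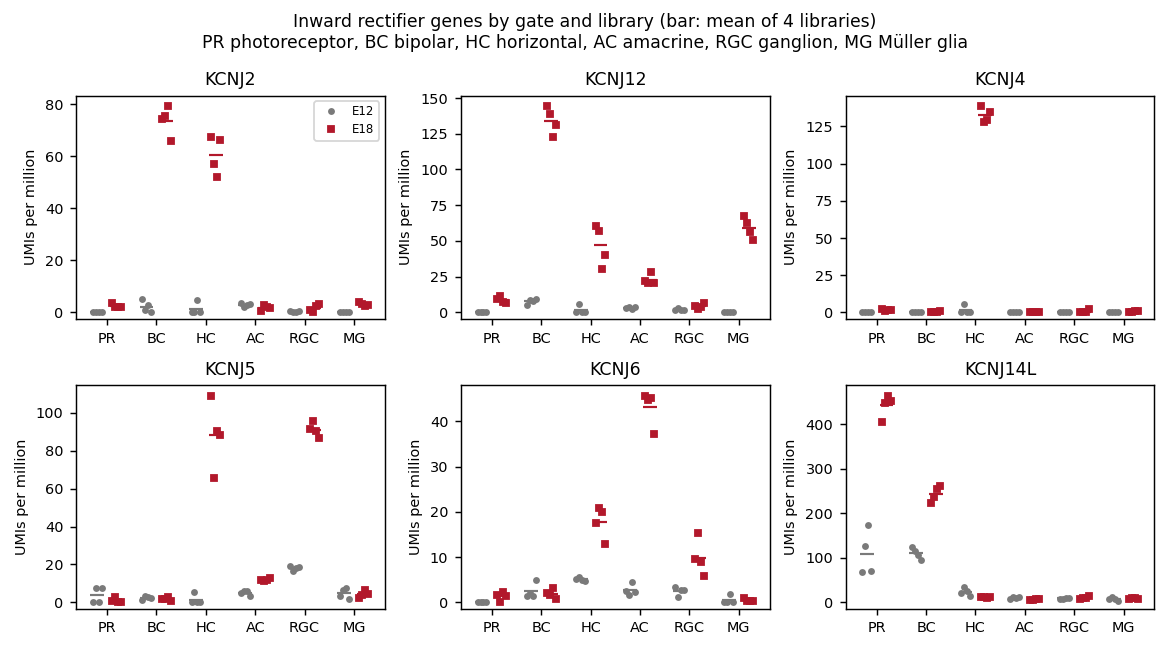
Level of 6 inward rectifier genes (CPM) in each library of each gate at E12 (grey circles) and E18 (red squares), with bars for the mean of 4 libraries. At E12 the means of KCNJ2, KCNJ4, KCNJ6 and KCNJ12 are at most 7.88 in every gate, and at E18 KCNJ4 is high in horizontal cells alone (128 to 139) whereas KCNJ12 is high in bipolar cells, horizontal cells and Müller glia.

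The 2-pore leak channels (KCNK) set the resting conductance. At E18, 7 of 9 tested were called higher in ganglion cells (beside 17.3% of all genes) and 5 in amacrine cells (13.1%). KCNK3 (TASK1) rose in 4 classes. In Müller glia it went from 3.29, 4.82, 9.44 and 3.41 to 85.0, 78.6, 76.0 and 79.1 (log2 4.14, SE 0.24, adjusted p = 2.13e-22), and in ganglion cells from 22.5, 21.1, 21.6 and 23.8 to 122, 105, 127 and 109.5 (log2 2.22, SE 0.11, adjusted p = 1.48e-20). It rose also in bipolar cells (35.0 to 99.3) and amacrine cells (10.2 to 35.3), so that no class stood 2-fold above the next.

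KCNK5 (TASK2) and KCNK12 were the members with their highest level in Müller glia. KCNK5 stood there at 59.3, 75.5, 39.7 and 73.3 at E12 and 58.4, 57.5, 60.2 and 60.5 at E18 (log2 0.12, adjusted p = 0.465), with every other gate at 3.82 or less at E12 and 2.89 or less at E18. KCNK12 rose from 0, 1.61, 7.55 and 3.41 to 46.4, 43.8, 42.0 and 49.5 (log2 4.10, SE 0.32), against 14.2 in ganglion cells. The libraries of the 2 stages overlapped for KCNK5 and were far apart for KCNK12.

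KCNK1 (TWIK1) was a horizontal cell gene at E18. It went from 10.4, 0, 4.92 and 4.68 to 129, 157, 194 and 161 (log2 4.75, SE 0.38), 5.91-fold above ganglion cells. KCNK10 (TREK2) was a ganglion cell gene at 35.7, 37.9, 40.2 and 34.2, 9.26-fold above amacrine cells, and its change from 41.9 ± 2.28 at E12 was not called. KCNK9 and KCNK2 were highest in ganglion cells as well (110.2 and 31.3), and KCNK13 was an amacrine gene at 11.2 against 1.28. KCNK15 rose in amacrine and ganglion cells (log2 1.15 and 1.10).

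Within 4 of the classes, barcodes at E18 were divided by further markers into subgates, and the members were compared between them (edgeR with library as block). Here too a gene nearly undetected in 1 subgate enters only through the other, and the counts describe the members that passed. The call of such a gene is again largely fixed in advance. Horizontal barcodes positive for LHX1 (172 to 193 per library) and for ISL1 (162 to 175) differed in 11 of 17 members tested, 5 higher in the LHX1 subgate (9.53% of all genes) and 6 in the ISL1 subgate (7.51%). KCNJ4 stood in the LHX1 subgate at 0, 2.70, 0 and 0 and in the ISL1 subgate at 325, 322, 337 and 363 (ratio 511, 95% counting interval 91.2 to 20253). KCNJ5 stood the other way, at 183, 111, 155 and 134 with LHX1 and 3.57, 3.62, 7.10 and 7.04 with ISL1 (log2 4.73, SE 0.32, adjusted p = 3.52e-19). KCNJ4 and KCNJ5, each at 1 UMI in E12 horizontal cells, thus stood highest in opposite subgates.

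The A-type gene KCND2 went with KCNJ5 (154 ± 21.7 with LHX1, 13.3 ± 6.01 with ISL1, log2 3.54), as did KCNH5, KCNMB2 and KCNH6. KCNJ2 (17.7 and 125), KCNJ12 (20.4 and 80.3), KCNMB4 (34.9 and 144) and KCNH7 went with KCNJ4. KCNMA1, the BK pore gene, stood at 14.5 ± 3.22 with LHX1 and 103 ± 33.5 with ISL1 (log2 -2.74, adjusted p = 3.31e-12). The 2 BK beta subunits thus divided, KCNMB2 with LHX1 and KCNMB4 with ISL1.

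Bipolar barcodes with ON markers (429 to 512 per library) and OFF markers (524 to 540) differed in 12 of 35 members, 6 higher with ON markers (5.22% of all genes) and 6 with OFF markers (5.57%). KCNJ14L stood at 14.7, 20.9, 13.2 and 22.8 in the ON subgate and at 527, 542, 558 and 573 in the OFF subgate (log2 -4.90, SE 0.12, adjusted p = 5.58e-108). KCNG3 held 3 UMIs in the ON subgate and 115 in the OFF subgate (ratio 39.1, interval 13.0 to 192). KCNMB4 was higher with OFF markers as well (639 ± 31.5 and 1815 ± 55.4, log2 -1.48), as were KCNV2, KCNIP4 and KCNA5. On the ON side stood KCNA3, at 104, 128, 82.0 and 92.7 against 26.7, 23.6, 10.7 and 15.0 (log2 2.45, adjusted p = 1.69e-30), and KCND3, at 259 ± 13.2 against 65.1 ± 11.2 (log2 2.02), with KCNAB1, KCNA4, KCNJ2 and KCNJ11. Of the Kv1 genes and their beta subunits, KCNA3, KCNA4 and KCNAB1 were thus higher with ON markers and KCNA5 with OFF markers. The libraries of the 2 subgates did not overlap for any of the 12. These members had already been called, and no share of all genes is given, so this describes them only. The KCNA5 call was lost without E18 replicate 2 (-0.77) and with the stricter gate (-0.87), and the KCNJ11 call without replicate 3 (0.96) or 4 (0.75).

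Amacrine barcodes positive for GAD1 or GAD2, the enzymes that make GABA, and those positive for SLC6A9, the glycine transporter, differed in 17 of 44 members, 11 higher with GAD (6.81% of all genes) and 6 with SLC6A9 (3.47%). KCNV1 stood at 6.62, 7.71, 5.93 and 6.96 with GAD and 105, 120.1, 93.5 and 113 with SLC6A9 (log2 -3.95, SE 0.18, adjusted p = 7.95e-20). KCNH7 stood at 102 ± 13.2 and 451 ± 19.0 (log2 -2.14, adjusted p = 3.90e-23), and KCNG1 at 2.22 and 21.1 (log2 -3.18). The GAD subgate was higher for KCNK3 (45.9 ± 6.79 against 9.48 ± 1.86, log2 2.28), KCNH1 (23.6 against 5.72), KCND2 (68.4 against 18.6) and KCNIP2 (208 against 60.9), and for KCNF1, KCNH6, KCNJ6, KCNJ12, KCNN1, KCNS1 and KCNT1. KCND2 and its partner KCNIP2 thus lay on the same side in the amacrine gate. In the horizontal subgates KCND2 was called and KCNIP2 was not, and in the bipolar subgates KCND3 and KCNIP4 lay on opposite sides. The remaining genes on the SLC6A9 side were KCNG2, KCNIP1 and KCNJ9. Libraries overlapped for KCNG2 and KCNN1 and for none of the other 15. All 17 had already been called, and this count too has no share of all genes beside it. Leaving out E18 replicate 2 ended the calls of KCNG2 (-0.79), KCNJ9 (-0.97), KCNN1 (0.88) and KCNT1 (adjusted p = 0.053). Without replicate 3 the calls of KCNJ6 (0.88), KCNN1 (0.72) and KCNT1 (0.75) were lost, and without replicate 4 those of KCNN1 (0.98) and KCNS1 (0.96). The stricter gate ended the calls of KCNG2 (-0.79), KCNJ6 (0.99), KCNJ9 (-0.80) and KCNS1 (0.98). KCNG2 (-0.89) and KCNN1 (0.99) were also not called without the barcodes with the most UMIs, nor was KCNG2 with no filter (-0.99) or KCNN1 with library totals (0.99).

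Photoreceptor barcodes with rod markers (127 to 153 per library) and cone markers (813 to 882) differed in 10 of 18 members, 5 higher with rod markers (6.8% of all genes) and 5 with cone markers (11.0%). KCNV2, the silent subunit that joins Kv2 channels in photoreceptors of mammals, stood at 157, 145, 106 and 112 in rods and at 1.19 ± 1.82 in cones (log2 6.66). KCNH8 stood at 37.7, 69.9, 92.4 and 84.0 in rods and at 1.14 ± 1.16 in cones (log2 5.82), and KCNIP4 and KCNC2 were higher in rods too. Cones were higher for KCNMA1 (305 ± 14.6 against 110.1 ± 39.2, log2 -1.38, adjusted p = 1.97e-12), KCNH2, KCNH6, KCNAB2 and KCNA3, of which KCNH2 (-0.95) and KCNH6 (-0.79) were not called without replicate 4. The KCNA3 call (22.5 against 7.36, log2 -1.53, adjusted p = 0.026) was lost without any 1 of the 4 libraries, with adjusted p from 0.0538 to 0.0872.

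**Figure D5:**
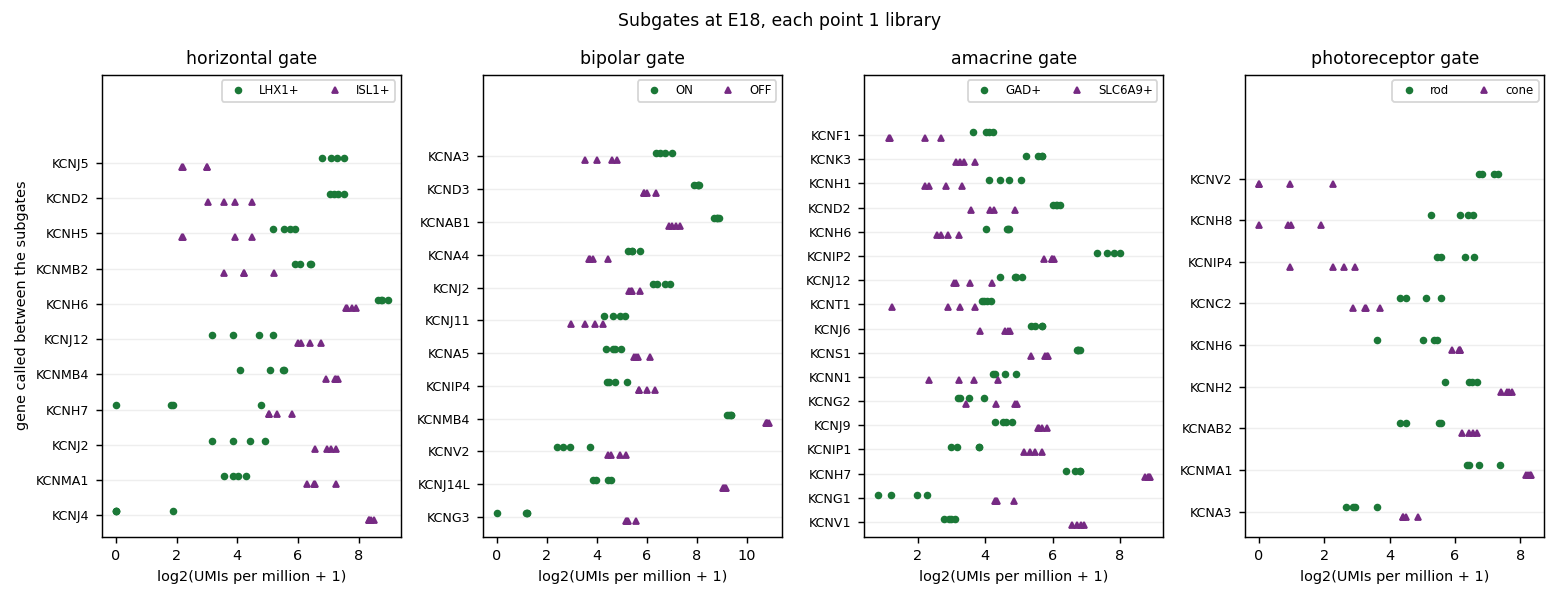
Level of potassium channel genes called between the 2 subgates of 4 E18 gates, as log2 of CPM plus 1, with 1 point per library (circles for the first and triangles for the second subgate of each legend). KCNJ4 lies near 0 in the LHX1 subgate and at 322 to 363 CPM in the ISL1 subgate, while KCNJ5 lies the other way.

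The Thy-1-enriched E16 libraries gave 2066 dorsal and 6040 ventral barcodes in the ganglion gate, and their levels were set beside the stage means without a test. Enrichment and stage both differ from the whole retina libraries, so their parts cannot be told apart. Median depth in this gate was 1749 to 1971.5 UMIs per barcode in dorsal libraries and 4327 to 4367 in ventral libraries. For 12 of the 13 members that rose in ganglion cells, all 4 E16 libraries lay above the E12 mean, and for 11 all 4 lay between the E12 and E18 means. KCNT2, the member that fell, also lay between them in all 4. These members were chosen by their change from E12 to E18. No share of all genes is given for these counts, so they describe these members only. KCNIP2 stood at 200.3, 182, 153 and 148 and KCNJ5 at 58.0, 59.5, 50.8 and 50.3, in the order dorsal then ventral. KCNK3 lay between 57.4 and 70.8. The exception was KCNJ6, with dorsal levels of 0.624 and 1.87 and ventral levels of 5.84 and 5.39, below and above the E12 mean. Its dorsal levels rest on 1 and 5 UMIs and its ventral levels on 82 and 69, and the regions were not compared. KCNQ3 held 113 to 130 and KCNS2 252 to 291 at E16, so these genes without a stage call were also high in the enriched libraries.

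In whole retina 26 of 66 members tested rose and 4 fell, beside 17.0% and 8.47% of all genes. In such sums fewer cells of a class and less RNA per cell cannot be told apart. The 4 that fell were KCNK10 (13.2 to 4.07), KCNN1 (36.8 to 12.5), KCNS2 (80.3 to 38.5) and KCNT2 (37.8 to 20.7). Among those that rose were KCNJ12 (3.42 to 63.0, log2 3.99), KCNJ2 (2.44 to 26.2), KCNJ14L (21.6 to 106) and KCNH6 (20.4 to 92.2). KCNA1, KCNE3, KCNJ3 and KCNN3 were tested only here and rose, the KCNN3 call being lost without E18 replicate 1 (0.90), and KCNE2 was tested only here and not called. Among the members tested nowhere were KCNE4, KCNJ16, KCNJ8, KCNK18, KCNQ1, KCNQ5 and KCNRG.

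A list of 27 other genes that act with potassium channels (HCN channels, accessory proteins, the sodium-potassium pump and chloride cotransporters) gave the surroundings of these changes, 21 of them being in the files. In bipolar cells 4 of 15 tested rose and 0 fell, beside 12.7% and 8.61% of all genes. The counts were 6 and 1 of 18 in amacrine cells (11.8% and 7.9%) and 6 and 0 of 18 in ganglion cells (10.6% and 7.38%). They were 6 and 2 of 13 in photoreceptors (17.6% and 9.81%), 3 and 1 of 11 in horizontal cells (11.5% and 9.23%) and 7 and 0 of 13 in Müller glia (17.2% and 10.3%). SLC12A5, the potassium-chloride exporter KCC2, rose in 5 classes, from 49.5 to 356 in ganglion cells (log2 2.69) and from 99.0 to 359 in bipolar cells. ATP1B1, a pump beta subunit, rose in horizontal cells from 179 to 1347 (log2 2.75).

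Some members of one family are neighbours on a chromosome: KCNA6, KCNA1 and KCNA5 on chromosome 1, KCNA10, KCNA2 and KCNA3 on chromosome 26, and KCNJ16 and KCNJ2 on chromosome 18. KCNA10, KCNA2 and KCNA3 had their highest E18 level in photoreceptors, ganglion cells and amacrine cells.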

How the data were processed

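Per the labels' protocols, retinas were dissociated with papain and libraries were made with a droplet-based 3' kit; per the submitters' processing notes, Cell Ranger 2.1.0 and the genome build GRCg6a were used. The deposited files are 3 tables of counts (UMIs for each gene in each barcode, not normalized) that the authors made. Barcodes were gated as described, UMIs were summed per library and gate, and sums were tested with edgeR 4.0.16 in R 4.3.3 (quasi-likelihood, filterByExpr, TMM scaling, Benjamini-Hochberg adjustment over all genes tested). The restriction and subgate tests had the library as a block. DESeq2 1.42.0, library totals, no filter, a stricter gate, barcodes without HINTW and sums without the 5% of barcodes with the most UMIs were alternatives. TMM moved the median of all genes between stages by 0.41 (photoreceptor), 0.08 (bipolar), 0.17 (horizontal), 0.19 (amacrine), 0.16 (ganglion), -0.20 (Müller) and 0.21 (whole retina) on the log2 scale against library totals, and printed folds are from the TMM fit while printed levels are unscaled. Counting intervals cover counting error only.

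Members, lists and gate limits were chosen with earlier results of these data known. Values were printed for up to 4 called members per class and direction at 20 CPM or more with no overlap between stages, up to 4 per class by ratio to the next class, up to 2 per subgate and direction, and the highest member of each family (41 genes, some of which are not reported here); other members were named after their values were seen. Markers in the files were 29 of 34 for photoreceptors, 19 of 22 for bipolar cells, 12 of 12 for horizontal cells, 17 of 17 for amacrine and for ganglion cells and 16 of 18 for Müller glia. Barcodes with mixed markers stayed ungated, which was the treatment of doublets, and free RNA in droplets was not removed. Libraries of a stage shared 0.854% to 2.10% of barcode sequences, and the 2 E16 dorsal libraries 2.93%. RefSeq (GRCg7b) gave chromosomes for 71 of 74 members. Replicate numbers did not pair the stages (correlation of same-numbered libraries -0.167 to 0.0816).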

Additional observations from a re-analysis of the deposited data

Results flagged for a closer look

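In 12 of the 102 groups of 4 libraries examined, 1 library stood farther from the others than the 95% limit of Dixon's test, and chance gives about 1 in 20. In 5 of them the value rests on 1 UMI against 0: KCNB2 in E12 photoreceptors, replicate 2 (7.42 CPM); KCNJ4, KCNJ5 and KCNJ12 in E12 horizontal cells, replicate 2 (5.59 each); and KCNJ2 in E12 horizontal cells, replicate 3 (4.92). KCNMA1 in E12 photoreceptors stood at 8.66 in replicate 3 against 34.3 to 38.6 in the others. KCNH1 in E12 bipolar cells stood at 6.40 in replicate 2 against 2.41 to 2.72. KCNJ6 in E18 amacrine cells stood at 37.3 in replicate 4 against 44.7 to 45.7. KCNIP4 in ganglion cells stood at 10.7 in E12 replicate 1 against 8.48 to 8.84 and at 58.0 in E18 replicate 2 against 45.2 to 47.3. KCNMB2 in E18 horizontal cells stood at 62.6 in replicate 2 against 49.3 to 50.6, and KCNH6 in whole E18 retina at 85.8 in replicate 4 against 93.7 to 94.8.

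KCNMB4 rose in photoreceptors and fell in amacrine cells from E12 to E18, and its changes differed between classes (edgeR interaction, adjusted p = 8.13e-31).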

How the results depend on the processing

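The 82 results on genes named by the rule were recomputed under the alternatives, which gave 921 values: 900 kept the direction and the call, 21 lost the call in 7 results, and 0 changed direction. The rule mostly picks called members with the largest changes or ratios, so keeping the call was largely fixed in advance. The 900 values do not describe the members named outside the rule, for several of which lost calls are given above. Within the 82 results, calls were lost for KCNS2 in bipolar cells (-0.80 to -0.96), KCNH7 in horizontal cells, KCNN1 (-0.91 and -0.99) and KCNMB4 (-0.83 to -0.99) in amacrine cells, KCNT2 in ganglion cells (-0.93 and -0.82) and whole retina (-0.87 and -0.97), and KCNA3 between rods and cones. Most lie near the 2-fold limit, and the cause was not tested. The counts of called members stayed within 1.5 times of those reported except in these cases. In horizontal cells the stricter gate gave 8 instead of 15, with fewer members tested. In Müller glia the count was 22 instead of 8 with no filter on low counts and 5 without the barcodes with the most UMIs. With no filter the E12 restriction count was 58 instead of 36 and the rod and cone count 17 instead of 10. Leaving out 1 library gave 7 to 16 in photoreceptors, 25 to 29 in bipolar cells, 10 to 19 in horizontal cells, 20 to 28 in amacrine cells, 12 to 16 in ganglion cells, 4 to 17 in Müller glia and 30 to 33 in whole retina; 58 to 59 and 36 to 40 for restriction at E18 and E12; 47 to 50 for the interaction; and 11 to 12, 11 to 13, 13 to 18 and 7 to 11 for the horizontal, bipolar, amacrine and photoreceptor subgates. With the replicate block the stage counts were 11, 28, 16, 22, 14, 8 and 29 in the order photoreceptor, bipolar, horizontal, amacrine, ganglion, Müller and whole retina, and not every library correlated best with its own number. Depth limits detection in the E12 photoreceptor gate, which held 115444 to 134705 UMIs per library.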
